A study of Arabidopsis thaliana with 16 samples.

Results

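The expansin superfamily of Arabidopsis thaliana was examined in leaves with lowered NAA10 or disrupted HYPK. Its 35 loci were taken by locus code from an array table of 27826 probe sets, and all 35 had a probe set: 25 alpha-expansins (EXPA), 6 beta-expansins (EXPB), 3 expansin-like A genes (EXLA) and 1 expansin-like B gene (EXLB). Total leaf RNA was measured on 16 arrays, 4 for each of 4 genotypes. The line amiNAA10 carries an artificial microRNA against NAA10, the catalytic subunit of the N-terminal acetyltransferase complex NatA. A pair of HYPK lines carries T-DNA insertions, in exon 1 or in exon 2, and is called by that exon; HYPK is a small protein that binds NatA. The fourth genotype was the wild type (WT). Plants of every genotype were untreated, 6 weeks old and raised in soil in short days (8.5 h light), at 22 °C in the light and 18 °C in the dark. The labels do not give the promoter behind the artificial microRNA, a harvest batch, or whether replicates were single plants or pools, so the p-values cover only the spread among these samples, part of which may be technical.

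Expansins are secreted proteins that loosen the growing cell wall without cutting its polymers, and they act best at acidic pH. Plasma membrane proton pumps supply that acidity in acid growth, and xyloglucan endotransglucosylase/hydrolases (XTH) cut and rejoin a wall polysaccharide beside them. Wall loosening has been measured for alpha- and beta-expansins, while the expansin-like proteins share their fold without a shown loosening activity.

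Values are log2 expression from RMA, a method that scales all arrays alike, so a difference of 1 is a 2-fold change. Differences are the first named group minus the second. A gene is called when its adjusted p is under 0.05 in limma, with Benjamini-Hochberg adjustment over all 27826 probe sets. NAA10 stood at 2.89 ± 0.16 in amiNAA10 and at 4.96 ± 0.10 in WT (SD, n = 4 each; limma adjusted p = 2.46e-08). HYPK stood at 4.72 ± 0.14 in the exon 1 line and 5.66 ± 0.08 in WT (SD, n = 4 each; limma adjusted p = 0.000155). In samples that carry the exon 2 label, HYPK stood at 5.40 ± 0.27 (SD, n = 4; limma adjusted p = 0.191 against WT), so its signal leaves that label unchecked. In amiNAA10, which does not target HYPK, it stood at 5.34 ± 0.12 (SD, n = 4, limma adjusted p = 0.0694 against WT). All amiNAA10 arrays lay below all WT arrays for HYPK, while exon 2 arrays overlapped WT. Of 4 leaf mesophyll markers, RBCS1A averaged 12.7 in amiNAA10, 12.8 over both HYPK lines and 12.7 in WT, while LHCB1.1, LHCB2.1 and RCA were lower in amiNAA10, by 0.949, 0.997 and 0.287. On the first principal component of all probe sets, exon 2 replicate 4 stood apart at -44.3, against -1.87 to 15.5 for the other exon 2 arrays. Replicate 2 of amiNAA10 also stood apart, at -57.4 against -34.9 to -30.9 for the other amiNAA10 arrays. The exon 1 arrays ran from -32.5 to -0.01 and the WT arrays from 50.1 to 66.0.

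Many expansin transcripts were lower than in WT in each of the 3 lines, and the count was highest in amiNAA10. In amiNAA10, 18 of the 35 members (51.4%) were lower than in WT and 0 were higher, while 15.4% of all probe sets were called lower and 15.4% higher. Of the 35, 9 were lower by at least 1 on the log2 scale, which held for 3.91% of all probe sets. The median difference was -0.47 over the members and -0.02 over all probe sets. Averaged over the 35 members, the log2 value lay between 2.83 and 3.05 on the amiNAA10 arrays, 3.07 and 3.37 on the exon 1 arrays, 3.12 and 3.39 on the exon 2 arrays, and 3.63 and 3.74 on the WT arrays. The arrays of each line thus lay below all WT arrays. In whole leaves, fewer cells of a type and less RNA per cell cannot be told apart.

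In the HYPK exon 1 line 11 members were lower than in WT (31.4%) and 2 were higher, against 9.89% and 9.69% of all probe sets. Without exon 1 replicate 3 these 13 calls, set beside 19.6% of all probe sets called either way, became 8. In the exon 2 line 10 members were lower (28.6%) and 0 higher, against 6.82% and 7.03% of all probe sets. That count was 7 without exon 2 replicate 4, 4 without WT replicate 1 and 6 without WT replicate 3. For the mean of both HYPK lines, 16 members were lower than in WT (45.7%) and 0 higher, against 11.5% of all probe sets called lower and 11.2% higher. The 16 became 12 without exon 2 replicate 4 and 10 without WT replicate 3. For fits with 1 array left out, the share of all probe sets called was not counted. The 3 lines were all set against the same 4 WT arrays. Of the 35 members, 9 were called lower in each of the 3 lines: EXPA3, EXPA4, EXPA6, EXPA9, EXPA11, EXPA12, EXPA16, EXPB3 and EXLB1. Of all probe sets 4.83% were called lower in each of the 3 lines. Among those called lower in amiNAA10, the counts lower in each of the 3 were 9 of 18 members and 1344 of 4275 probe sets.

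**Figure D1:**
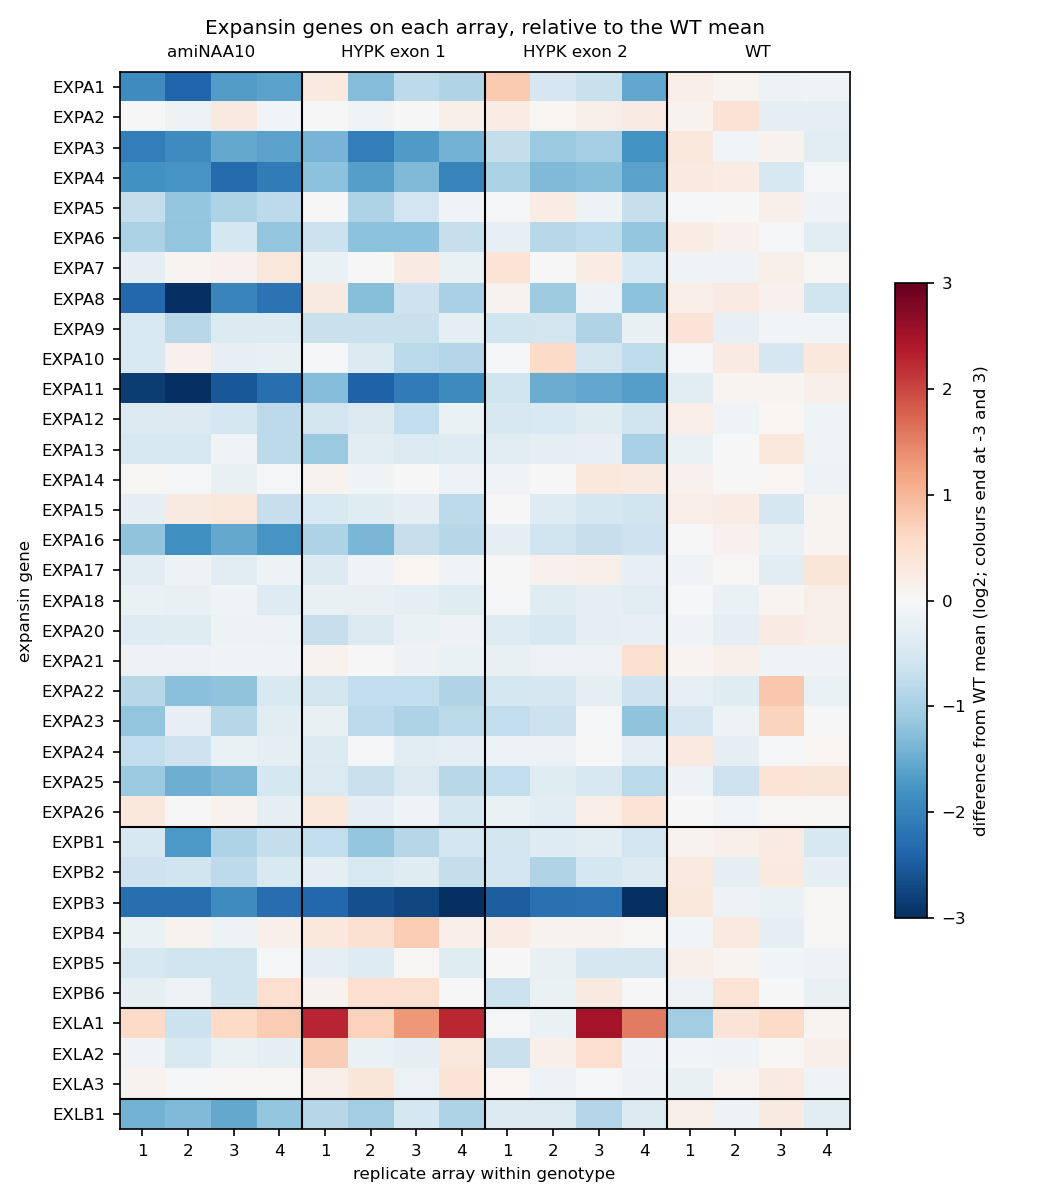
Each row is 1 of the 35 expansin genes and each column 1 array, with 4 arrays for each of amiNAA10, HYPK exon 1, HYPK exon 2 and WT; colour gives the log2 difference from the mean of the WT arrays, blue for lower and red for higher. Blue is most frequent in the amiNAA10 columns, where 18 of 35 genes were called lower, and EXLA1 is the row with the deepest red, in both HYPK lines.

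Among the alpha-expansins 13 of 25 were lower in amiNAA10, 8 in the exon 1 line, 7 in the exon 2 line and 12 over both HYPK lines, and 0 were higher in any of these comparisons. The shares of all probe sets called lower were 15.4%, 9.89%, 6.82% and 11.5% in the same comparisons. EXPA11 (AT1G20190) showed the largest difference in amiNAA10 of the 35 members. It read 2.66, 2.45, 2.98 and 3.24 in amiNAA10, 4.21, 3.08, 3.42 and 3.61 in the exon 1 line, 4.91, 4.02, 3.95 and 3.86 in the exon 2 line, and 5.17, 5.60, 5.59 and 5.67 in WT. Each array of each line lay below each WT array. EXPA11 fell to 15.6% of the WT value in amiNAA10 (difference -2.68, SE 0.25, limma adjusted p = 2.35e-06). In the exon 1 line the difference was -1.93 (SE 0.25, limma adjusted p = 0.000117), and in the exon 2 line -1.32 (SE 0.25, limma adjusted p = 0.00302).

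EXPA3 and EXPA4 were also lower in every line. EXPA3 (AT2G37640) read 3.12, 3.31, 3.68 and 3.61 in amiNAA10, 3.82, 3.14, 3.51 and 3.78 in the exon 1 line, 4.48, 4.09, 4.22 and 3.41 in the exon 2 line, and 5.52, 5.11, 5.31 and 4.88 in WT. No array of a line reached the lowest WT array. The EXPA3 difference was -1.78 in amiNAA10 (SE 0.22, limma adjusted p = 1.89e-05), -1.65 in the exon 1 line (limma adjusted p = 0.000126) and -1.16 in the exon 2 line (limma adjusted p = 0.00271). For EXPA4 (AT2G39700) the values were 3.67, 3.73, 3.18 and 3.40 in amiNAA10, 4.26, 3.83, 4.16 and 3.49 in the exon 1 line, 4.54, 4.17, 4.20 and 3.89 in the exon 2 line, and 5.78, 5.71, 5.02 and 5.45 in WT. Again every array of every line was below WT. EXPA4 fell to 25.1% of the WT value in amiNAA10 (difference -1.99, SE 0.20, limma adjusted p = 3.63e-06), with differences of -1.56 in the exon 1 line (limma adjusted p = 0.000104) and -1.29 in the exon 2 line (limma adjusted p = 0.000717).

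EXPA16 (AT3G55500) followed the same order, with the amiNAA10 mean lowest and the WT mean highest. Its values were 4.04, 3.42, 3.72 and 3.48 in amiNAA10, 4.33, 3.87, 4.54 and 4.40 in the exon 1 line, 4.95, 4.65, 4.56 and 4.62 in the exon 2 line, and 5.25, 5.37, 5.04 and 5.33 in WT. The exon 1 and exon 2 arrays did not overlap, and all of both lay below WT. The difference from WT was -1.58 in amiNAA10 (SE 0.16, limma adjusted p = 3.84e-06), -0.96 in the exon 1 line (limma adjusted p = 0.000681) and -0.55 in the exon 2 line (limma adjusted p = 0.0297). The exon 2 call ended without exon 2 replicate 4 (-0.53, limma adjusted p = 0.0814) and in 5 further fits that each left out 1 exon 2 or WT array.

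EXPA8 and EXPA1 were lower in amiNAA10, and neither passed the test in a HYPK line. EXPA8 (AT2G40610) read 5.15, 4.28, 5.53 and 5.30 in amiNAA10, 7.79, 6.24, 6.89 and 6.54 in the exon 1 line, 7.62, 6.44, 7.33 and 6.28 in the exon 2 line, and 7.72, 7.76, 7.65 and 6.92 in WT. The amiNAA10 arrays were below all others, while the arrays of both HYPK lines overlapped WT. EXPA8 fell to 18.3% of the WT value in amiNAA10 (difference -2.45, SE 0.36, limma adjusted p = 8.34e-05). Over both HYPK lines its difference from WT was -0.62 (SE 0.31, 95% interval -1.27 to 0.03, limma adjusted p = 0.166).

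EXPA1 (AT1G69530) is expressed in guard cells and takes part in stomatal opening. It read 6.11, 5.62, 6.31 and 6.40 in amiNAA10, 8.29, 6.70, 7.21 and 7.09 in the exon 1 line, 8.79, 7.49, 7.31 and 6.44 in the exon 2 line, and 8.20, 8.07, 7.84 and 7.87 in WT. All amiNAA10 arrays were below all WT arrays. The HYPK arrays spread more widely than WT, with replicate 1 of each line above every WT array and exon 2 replicate 4 the lowest of the 8. EXPA1 fell to 27.1% of the WT value in amiNAA10 (difference -1.88, SE 0.38, limma adjusted p = 0.00125). Over both HYPK lines the difference was -0.58 (SE 0.33, 95% interval -1.28 to 0.12, limma adjusted p = 0.235). All 5 guard cell markers examined (KAT1, GC1, FAMA, MYB60 and SLAC1) were lower in amiNAA10, by 0.55 to 1.43, and all 5 were lower over both HYPK lines, by 0.64 to 1.06. Their summed log2 value was 24.4 to 26.1 on amiNAA10 arrays, 25.0 to 27.9 on HYPK arrays and 28.8 to 31.8 on WT arrays, and their part in the EXPA1 result was not tested. Of all probe sets 15.4% were called lower in amiNAA10 and 11.5% over both HYPK lines.

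EXPA25 (AT5G39300) completes the alpha-expansins that differed by at least 1. It read 4.17, 3.83, 3.94 and 4.76 in amiNAA10, 4.85, 4.63, 4.87 and 4.45 in the exon 1 line, 4.55, 4.93, 4.82 and 4.47 in the exon 2 line, and 5.15, 4.67, 5.70 and 5.65 in WT. Replicate 4 of amiNAA10 lay above WT replicate 2, so these groups overlapped. The amiNAA10 difference was -1.11 (SE 0.22, limma adjusted p = 0.00116). EXPA25 was called in neither single HYPK line: -0.59 in exon 1 (limma adjusted p = 0.0751) and -0.60 in exon 2 (limma adjusted p = 0.0862). For the mean of both HYPK lines it was -0.60 (SE 0.19, limma adjusted p = 0.0354). That call ended without exon 2 replicate 4 (limma adjusted p = 0.0603) and in 7 other fits.

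**Figure D2:**
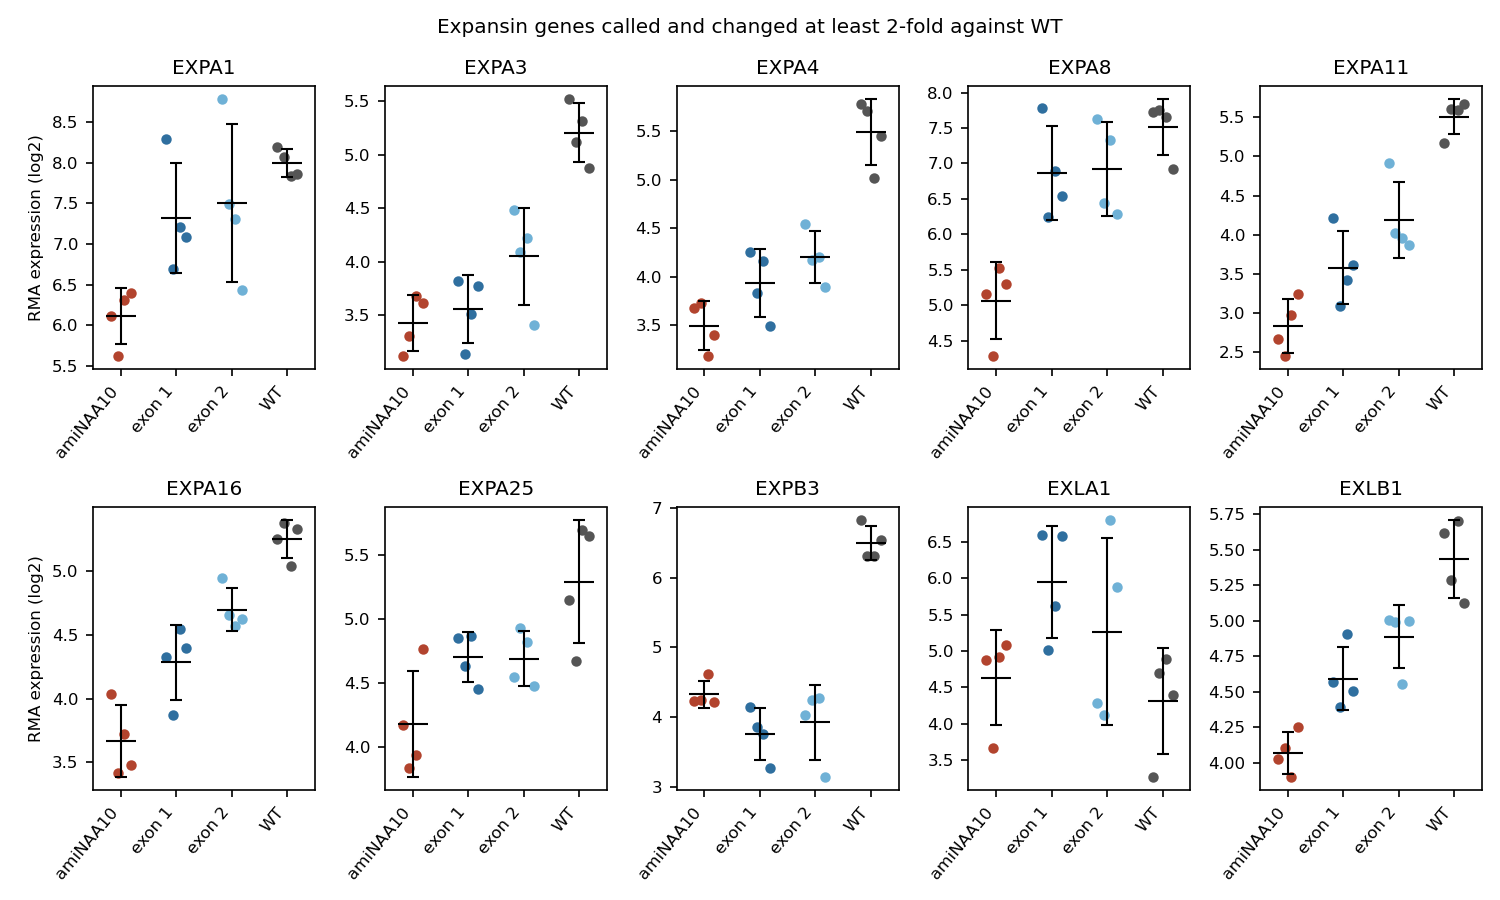
Points are the 4 arrays of each genotype, the horizontal mark is the mean and the bar is 1 SD, on the log2 RMA scale with a separate axis for each gene. For EXPA8 and EXPA1 all amiNAA10 arrays lie below WT while the HYPK arrays overlap WT, EXPB3 is at most 4.61 on any array of the 3 lines and at least 6.30 in WT, and EXLA1 spreads widely within every genotype.

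Smaller falls were found in other alpha-expansins. EXPA5 (AT3G29030), which is induced by brassinosteroid, fell by 0.90 in amiNAA10 (limma adjusted p = 0.00267) and differed by -0.29 over both HYPK lines (limma adjusted p = 0.270). EXPA6 (AT2G28950) fell by 0.96 in amiNAA10 (limma adjusted p = 0.00187), by 0.94 in the exon 1 line (limma adjusted p = 0.00436) and by 0.75 in the exon 2 line (limma adjusted p = 0.0229). EXPA9 (AT5G02260) fell by 0.53 in amiNAA10 (limma adjusted p = 0.0208), by 0.58 in the exon 1 line and by 0.57 in the exon 2 line. EXPA12 (AT3G15370) fell by 0.55, 0.48 and 0.48 in the same order of lines, with limma adjusted p = 0.00336, 0.0143 and 0.0204. The differences of EXPA6, EXPA9 and EXPA12 were smaller than those of EXPA11 and were called in all 3 lines. Some of these calls ended when 1 array was left out: EXPA9 in amiNAA10 without amiNAA10 replicate 2 or WT replicate 1, EXPA9 in the exon 1 line without exon 1 replicate 2 or 3 or WT replicate 1, and EXPA12 there without exon 1 replicate 3 or WT replicate 1. In the exon 2 line the EXPA6 call ended without exon 2 replicate 4 or WT replicate 1 or 2, that of EXPA12 without exon 2 replicate 4 or WT replicate 1 or 3, and that of EXPA9 without exon 2 replicate 1 or 3, without WT replicate 1 or 3, and with only the compared arrays. EXPA13 (AT3G03220) and EXPA20 (AT4G38210) were called lower only for the mean of both HYPK lines, by 0.51 (limma adjusted p = 0.0447) and by 0.37 (limma adjusted p = 0.0375), and those calls ended in 13 and 11 of 24 alternative fits. The amiNAA10 differences of these genes were -0.47 for EXPA13 (limma adjusted p = 0.0943) and -0.27 for EXPA20 (limma adjusted p = 0.154).

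The 6 genes EXPA21 to EXPA26 are consecutive loci on chromosome 5 in the RefSeq TAIR10.1 gene table. EXPA22 (AT5G39270) fell by 0.94 in amiNAA10 (limma adjusted p = 0.00378), EXPA24 (AT5G39310) by 0.46 (limma adjusted p = 0.0203) and EXPA25 by 1.11, as above. The EXPA24 call ended without amiNAA10 replicate 1 or 2 or WT replicate 1. EXPA23 differed by -0.65 (limma adjusted p = 0.0863), EXPA21 by -0.14 and EXPA26 by 0.03. EXPA22 was also lower in the exon 1 line (difference -0.73, limma adjusted p = 0.0282), but WT replicate 3 read 4.36 against 3.20 to 3.34 on the other WT arrays. Without that array the EXPA22 difference was -0.46 in the exon 1 line and -0.33 over both HYPK lines, and both calls ended. The exon 1 call also ended without exon 1 replicate 2, 3 or 4 and with only the compared arrays, and the HYPK call without exon 1 or exon 2 replicate 4. Whether RNA of one neighbour reached the probe set of another was not tested.

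Several members are known from other organs. EXPA7 and EXPA18 are root hair genes, EXPA14 and EXPA17 are expressed around lateral roots, and EXPA2 acts in seed germination. All 5 had a mean over all arrays under 1.83, the value below which the dimmest 30% of probe sets lie, as did EXPA21, EXPA26, EXPB4 and EXLA3. This level is a rank among probe sets and not a measured background. Of these 9 dim members, EXPA18 (AT1G62980) was called lower over both HYPK lines (difference -0.27, limma adjusted p = 0.0443, a call lost in 15 of its 23 alternative fits) and EXPB4 higher in the exon 1 line. Of 4 root hair markers (COBL9, RBOHC, LRX1 and PRP3) 0 were called and 3 were as dim, with a summed log2 value of 5.56 to 9.43 on amiNAA10 arrays, 4.95 to 6.67 on HYPK arrays and 4.98 to 5.90 on WT arrays. EXPA10 (AT1G26770), which promotes leaf growth, differed by -0.20 in amiNAA10 (95% interval -0.75 to 0.36, limma adjusted p = 0.640) and by -0.36 over both HYPK lines (95% interval -0.84 to 0.12, limma adjusted p = 0.287). In all, 12 members were called in no comparison with WT: EXPA2, EXPA7, EXPA10, EXPA14, EXPA15, EXPA17, EXPA21, EXPA23, EXPA26, EXPB6, EXLA2 and EXLA3. Their differences from WT ran between -0.69 and 0.27.

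**Figure D3:**
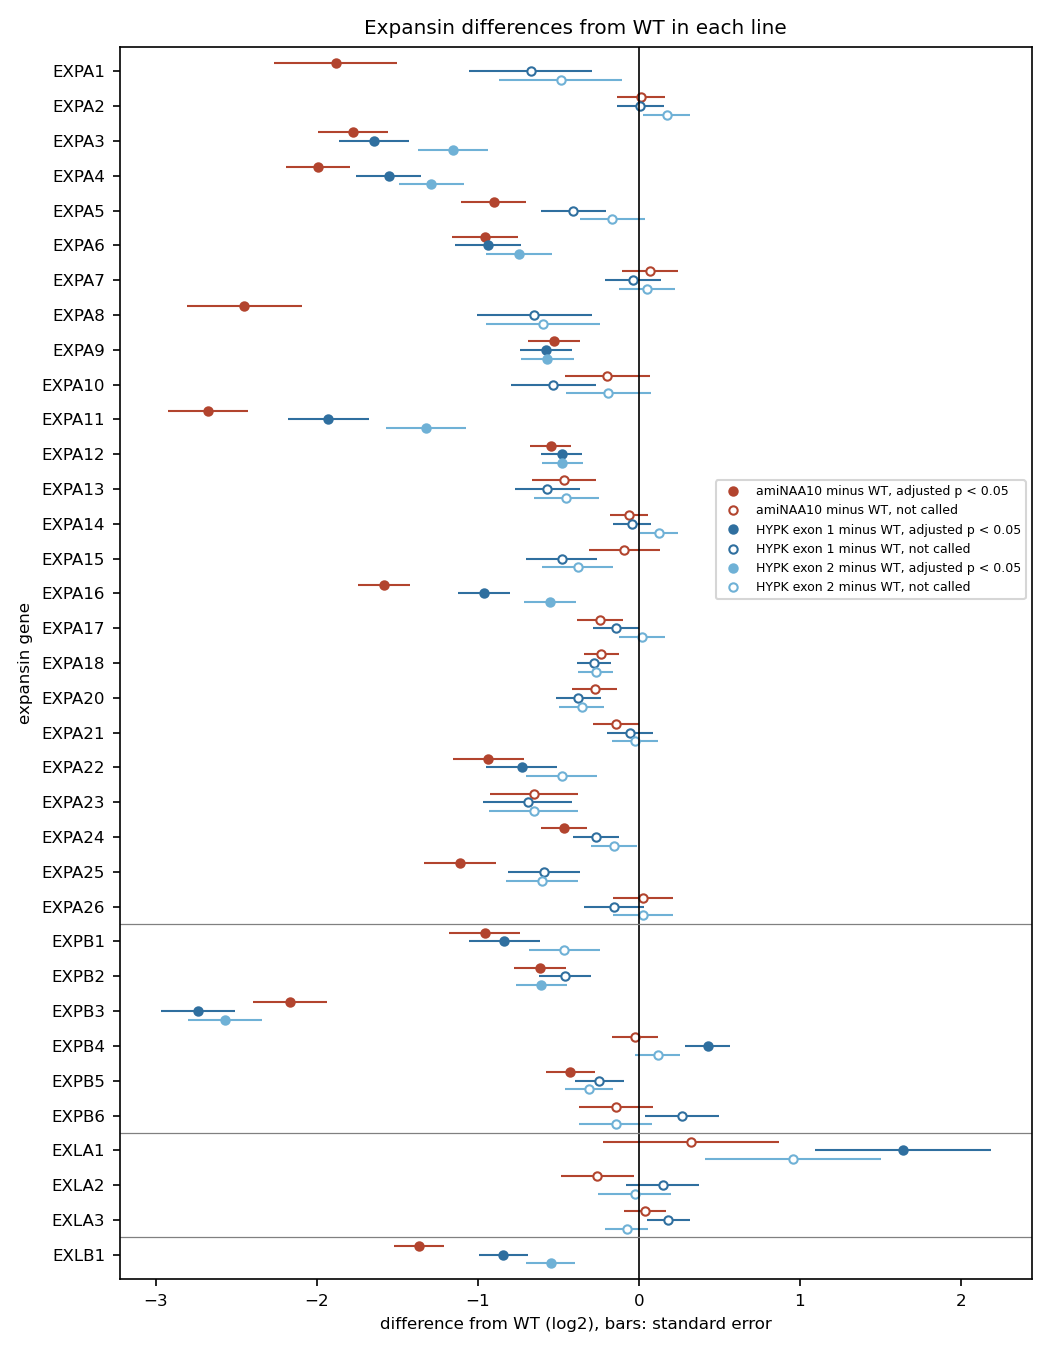
Points give the log2 difference from WT of each of the 35 genes in amiNAA10 and in both HYPK lines, exon 1 and exon 2, with bars of 1 standard error; filled points have a limma adjusted p under 0.05. Filled points number 18 in amiNAA10, 13 in the exon 1 line and 10 in the exon 2 line, and those to the right of 0 are EXPB4 and EXLA1 in the exon 1 line.

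Among the beta-expansins 4 of 6 were lower in amiNAA10 and 3 of 6 over both HYPK lines, against 15.4% and 11.5% of all probe sets. EXPB3 (AT4G28250) had the largest difference of all members in each HYPK line. It read 4.23, 4.24, 4.61 and 4.22 in amiNAA10, 4.14, 3.86, 3.76 and 3.26 in the exon 1 line, 4.02, 4.25, 4.28 and 3.13 in the exon 2 line, and 6.82, 6.32, 6.30 and 6.54 in WT. The highest array of any line was more than 1 below the lowest WT array. EXPB3 fell to 22.2% of the WT value in amiNAA10 (difference -2.17, SE 0.23, limma adjusted p = 6.19e-06) and to 15.9% over both HYPK lines (difference -2.66, SE 0.20, limma adjusted p = 4.70e-07). In the exon 1 line the difference was -2.74, and in the exon 2 line -2.57, or -2.31 without its replicate 4 (limma adjusted p = 3.76e-06).

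EXPB1, EXPB2 and EXPB5 made up the rest of the lower beta-expansins. EXPB1 (AT2G20750) fell by 0.96 in amiNAA10 (limma adjusted p = 0.00331) and by 0.65 over both HYPK lines (limma adjusted p = 0.0217). EXPB2 (AT1G65680) fell by 0.61 (limma adjusted p = 0.00741) and by 0.53 (limma adjusted p = 0.0106) in the same comparisons. EXPB2 means were near the dim level of 1.83: 1.66 in amiNAA10, 1.74 over both HYPK lines and 2.28 in WT. Over both HYPK lines the EXPB1 and EXPB2 calls ended without WT replicate 1 or 3, and that of EXPB1 also without WT replicate 2. Taken singly, EXPB1 was called in the exon 1 line (-0.84, limma adjusted p = 0.0141) and not in exon 2 (-0.46, limma adjusted p = 0.183). EXPB2 was called in the exon 2 line (-0.61, limma adjusted p = 0.0189) and not in exon 1 (-0.46, limma adjusted p = 0.0531). The EXPB1 call ended without exon 1 replicate 2, and the EXPB2 call in 4 of 24 alternative fits. EXPB2 and EXPB6 are neighbours on chromosome 1, and EXPB6 differed by -0.14 in amiNAA10 and by 0.06 over both HYPK lines. EXPB5 (AT3G60570) fell by 0.43 in amiNAA10 (limma adjusted p = 0.0407), a call lost in 9 of 24 alternative fits, where the adjusted p ran from 0.00875 to 0.117. EXPB4 (AT2G45110) was higher in the exon 1 line by 0.43 (limma adjusted p = 0.0420), a call lost in 9 of its 23 alternative fits; the fit without dim probe sets does not hold it.

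The 4 expansin-like genes did not move alike. EXLB1 (AT4G17030) read 4.02, 4.10, 3.90 and 4.25 in amiNAA10, 4.57, 4.39, 4.90 and 4.50 in the exon 1 line, 5.00, 4.99, 4.55 and 5.00 in the exon 2 line, and 5.62, 5.29, 5.70 and 5.13 in WT. Every array of every line was below every WT array. EXLB1 fell by 1.37 in amiNAA10 (SE 0.15, limma adjusted p = 1.03e-05), by 0.84 in the exon 1 line (limma adjusted p = 0.00130) and by 0.55 in the exon 2 line (limma adjusted p = 0.0256). The exon 2 call ended in 4 of 24 alternative fits: with only the compared arrays, and without exon 2 replicate 3, WT replicate 1 or WT replicate 3 (adjusted p from 0.0140 to 0.0851 over all 24).

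EXLA1 (AT3G45970) was the one member called higher by at least 1. Its values were 4.88, 3.67, 4.91 and 5.08 in amiNAA10, 6.60, 5.01, 5.62 and 6.58 in the exon 1 line, 4.29, 4.11, 6.80 and 5.87 in the exon 2 line, and 3.26, 4.69, 4.90 and 4.39 in WT. All exon 1 arrays were above all WT arrays, whereas 2 of the 4 exon 2 arrays lay within the WT range. The difference was 1.64 in the exon 1 line (SE 0.55, limma adjusted p = 0.0440), 0.96 in the exon 2 line (SE 0.55, limma adjusted p = 0.272), 1.30 over both HYPK lines (SE 0.47, limma adjusted p = 0.0582) and 0.32 in amiNAA10 (SE 0.55, limma adjusted p = 0.718). The exon 1 call ended in 9 of the 16 fits that left out 1 array, with differences of 1.29 to 1.95 over all alternatives and adjusted p from 0.0201 to 0.138. EXLA2 (AT4G38400), known for its part in susceptibility to the mould Botrytis, differed by -0.26 in amiNAA10 (limma adjusted p = 0.447) and by 0.06 over both HYPK lines (limma adjusted p = 0.872). EXLA3 (AT3G45960), which neighbours EXLA1 on chromosome 3, differed by 0.04 and by 0.05 in those comparisons.

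The HYPK lines were also set against amiNAA10 directly. Of the 35 members, 7 were higher in the HYPK lines than in amiNAA10 and 0 lower, while 5.34% of all probe sets were called higher and 4.90% lower. The 7 are all alpha-expansins except EXLB1, and each had been called lower in amiNAA10 against WT, a comparison that uses the same amiNAA10 arrays. EXPA8 averaged 6.89 over the 8 HYPK arrays and 5.06 in amiNAA10, with no overlap (difference 1.83, SE 0.31, limma adjusted p = 0.00169). EXPA1 averaged 7.41 over the HYPK arrays and 6.11 in amiNAA10 (difference 1.30, SE 0.33, limma adjusted p = 0.0193). EXPA11 was higher by 1.05 (limma adjusted p = 0.00607), EXPA16 by 0.83 (limma adjusted p = 0.00162) and EXLB1 by 0.67 (limma adjusted p = 0.00481). EXPA5 was higher by 0.61 (limma adjusted p = 0.0337) and EXPA4 by 0.57 (limma adjusted p = 0.0443), and these calls ended in 9 and 11 of 24 alternative fits. Without amiNAA10 replicate 2, 4 of the 7 calls were left, and EXPA1 was among those lost (difference 1.09, limma adjusted p = 0.0853). EXPB3 lay the other way, at 3.84 in the HYPK lines and 4.33 in amiNAA10, a difference of -0.49 (SE 0.20, 95% interval -0.91 to -0.07) that missed the threshold with a limma adjusted p of 0.140. EXPA9 differed by -0.05 (95% interval -0.34 to 0.25) and EXPA12 by 0.07 (95% interval -0.16 to 0.30).

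**Figure D4:**
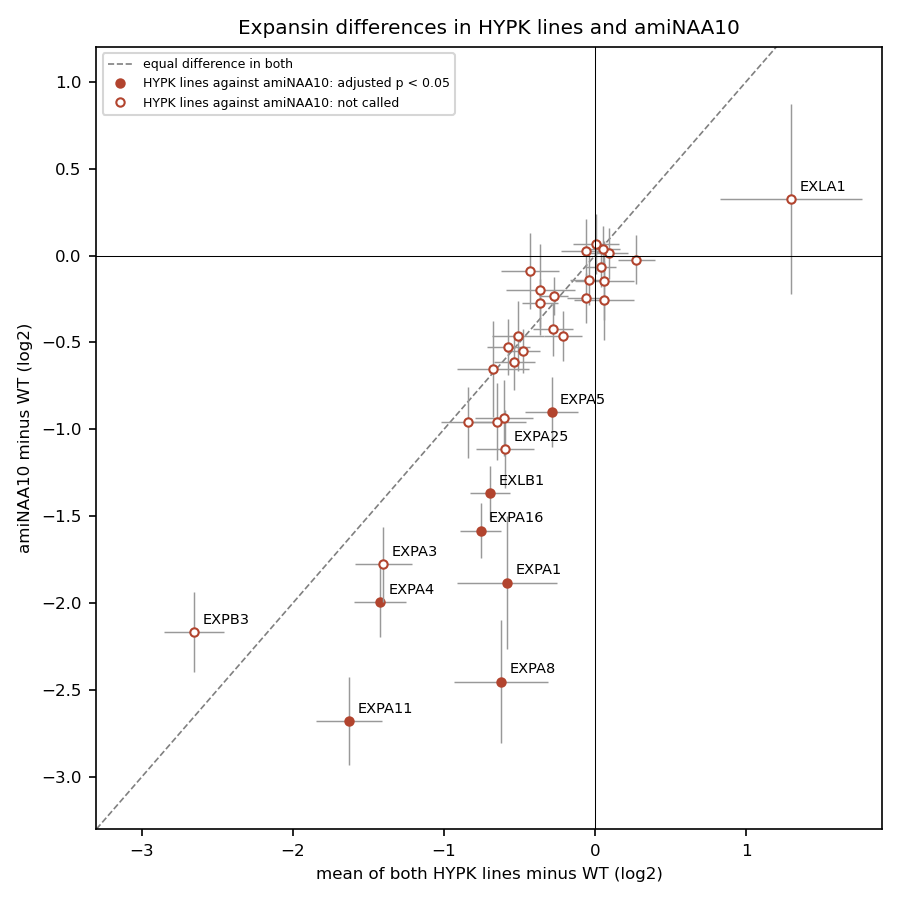
Each point is an expansin gene, with the log2 difference from WT over both HYPK lines on the horizontal axis and that in amiNAA10 on the vertical axis, bars of 1 standard error and a dashed line of equal difference; both axes use the same WT arrays. The 7 filled points, called between the HYPK lines and amiNAA10, lie below the dashed line, EXPA8 at -0.62 and -2.45 among them, and EXPB3 lies above it.

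Between the HYPK lines 0 of the 35 members were called, with limma adjusted p-values of at least 0.997, and 0.00719% of all probe sets were called. At an unadjusted p under 0.05 there were 4 members (EXPA3, EXPA11, EXPA16 and EXPB4), against 4.38% of all probe sets. In EXPA16 and EXPB1 the lines did not overlap, which gives an exact permutation p of 0.0286 and held for 2.17% of all probe sets. The exon 1 value was the lower one in 27 of 35 members, against 50.3% of all probe sets. EXPA11 differed by -0.61 (95% interval -1.14 to -0.08) and EXPA16 by -0.41 (95% interval -0.75 to -0.07), exon 1 minus exon 2. For EXPB3 the difference was -0.17 (95% interval -0.65 to 0.32), and for EXLA1 it was 0.68 (95% interval -0.47 to 1.84).

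In amiNAA10 14 members had all arrays below all WT arrays (40.0%, against 15.3% of all probe sets), and each had a two-sided exact permutation p of 0.0286, the smallest that 4 arrays against 4 can give. Over both HYPK lines 8 members lay wholly below WT (22.9%, against 5.92% of all probe sets), where 8 arrays against 4 can give no p below 0.00202. By that test 19 members had a two-sided exact permutation p under 0.05 over both HYPK lines, a threshold that 32% of all probe sets passed.

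Other genes of wall loosening and growth were counted in the same way, beside 15.4% of all probe sets lower and 15.4% higher in amiNAA10, and 11.5% lower and 11.2% higher over both HYPK lines. Of 33 XTH genes 8 were lower and 4 higher in amiNAA10 (median difference -0.11), and 7 lower and 3 higher over both HYPK lines (median difference -0.03). Of the 33, 10 were not above the dim level. XTH31 fell by 2.39 in amiNAA10 (limma adjusted p = 2.40e-07) and by 2.02 over both HYPK lines, XTH7 by 2.49 and 1.27, and XTH32 by 2.11 and 1.61. In the other direction, XTH differences reached 2.55 in amiNAA10 and 2.11 over both HYPK lines. The plasma membrane proton pumps, which acidify the wall, showed 1 lower and 2 higher of 11 in amiNAA10 and 1 of each over both HYPK lines. Of the 11, 4 were not above the dim level. AHA1 was higher by 0.65 in amiNAA10 (limma adjusted p = 0.000159) and by 0.28 over both HYPK lines (limma adjusted p = 0.0297). AHA4 was higher by 0.63 in amiNAA10 (limma adjusted p = 0.00820), and its HYPK difference was 0.34 (limma adjusted p = 0.106). Its means were near the dim level: 2.07 in amiNAA10, 1.78 over both HYPK lines and 1.44 in WT. AHA11 fell by 0.87 in amiNAA10 (limma adjusted p = 0.0115) and by 0.74 over both HYPK lines (limma adjusted p = 0.0188).

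SAUR19 to SAUR24 are auxin-induced proteins that hold the pumps active by inhibiting a phosphatase. Of the 6, 3 were not above the dim level. In amiNAA10 3 of the 6 were lower and 0 higher, with SAUR21 lower by 2.47 (limma adjusted p = 0.000564), SAUR24 by 1.99 (limma adjusted p = 0.000424) and SAUR20 by 1.28 (limma adjusted p = 0.0123). SAUR20 averaged 1.40 in amiNAA10, under the dim level of 1.83, and 2.68 in WT. Over both HYPK lines 2 of the 6 were lower: SAUR21 fell by 1.27 (limma adjusted p = 0.0276) and SAUR24 by 0.87 (limma adjusted p = 0.0488), while SAUR20 differed by -0.52 (limma adjusted p = 0.259). These copies are similar in sequence, and probe sharing among them was not tested. Of 22 regulators of growth, 7 were lower and 3 higher in amiNAA10, and 4 lower and 3 higher over both HYPK lines. Of the 22, 4 were not above the dim level. PRE1, a small helix-loop-helix protein that promotes elongation, fell by 2.29 in amiNAA10 (limma adjusted p = 2.65e-05). RGL3, a DELLA repressor of gibberellin responses, fell by 1.67 in amiNAA10 and by 0.98 over both HYPK lines (limma adjusted p = 0.00137). ARF7, an auxin response factor, was higher by 0.99 in amiNAA10 (limma adjusted p = 7.73e-06) and by 0.60 over both HYPK lines. IBH1, which restrains cell elongation, was higher by 0.85 over both HYPK lines (limma adjusted p = 0.000463).

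**Figure D5:**
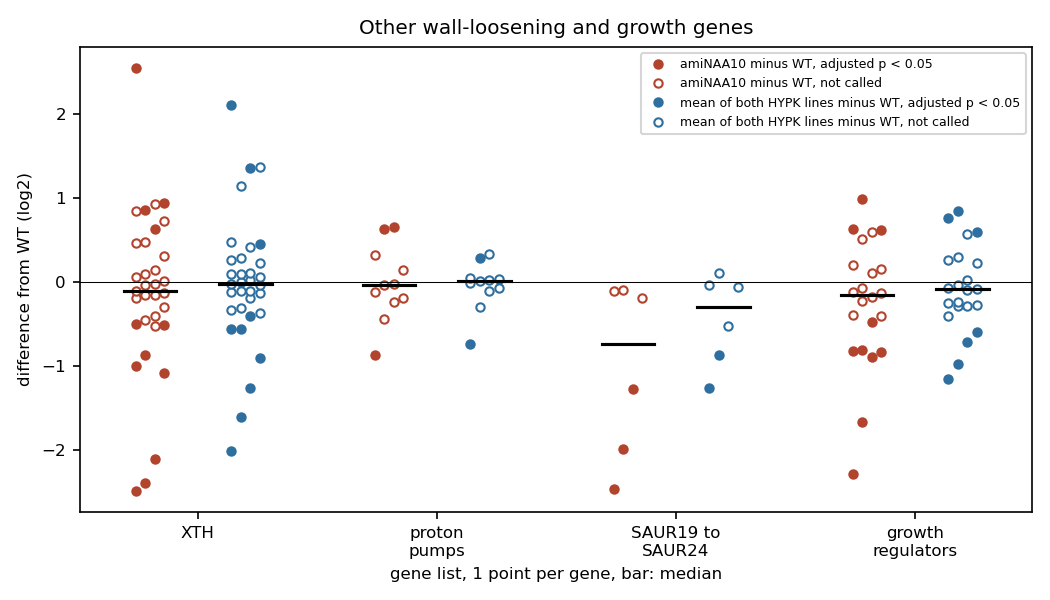
Points are genes of 4 lists (33 XTH, 11 proton pumps, 6 SAUR genes and 22 growth regulators) with their log2 difference from WT in amiNAA10 (red) and over both HYPK lines (blue); filled points have a limma adjusted p under 0.05 and bars are list medians. Filled points lie on both sides of 0 for XTH genes, pumps and regulators, and below 0 for the SAUR genes.

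Markers of other cell types were read beside these counts. Of all probe sets 15.4% were lower and 15.4% higher in amiNAA10, and 11.5% lower and 11.2% higher over both HYPK lines. In amiNAA10 3 of 4 mesophyll markers, both phloem markers and 1 of 3 xylem markers were lower. Of the 3 xylem markers, 1 was not above the dim level. Of 3 root markers PYK10 was higher in amiNAA10 by 1.86 (limma adjusted p = 0.00274), while SHR differed by -0.10 and SCR by -0.17 without passing the test. Of 3 shoot epidermis markers PDF1 was higher by 3.39 (limma adjusted p = 2.53e-05), while ATML1 differed by -0.17 and FDH by -0.04, not called. Of 3 cell division markers CYCB1;2 was higher by 0.47 (limma adjusted p = 0.0401), while CYCB1;1 differed by 0.12 and KN by 0.02, not called. Among these 3 division markers 2 were not above the dim level, and the highest value on any array was 3.77. Over both HYPK lines 1 mesophyll marker, 1 phloem marker and 1 of the 3 cell division markers (KN, by 0.70) were lower, and CYCB1;1 and CYCB1;2 differed by -0.08 and -0.15. Against amiNAA10, 2 of the 3 division markers were lower in the HYPK lines, beside 4.90% of all probe sets. The pollen marker VGD1 was at most 2.22 on any array. The part of these shifts in the expansin results was not tested.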

How the data were processed

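The deposited table holds log2 values for 16 arrays, 1 per probe set, which the authors made by RMA (robust multi-array average), per the submitters' processing notes. Its software version, array design and probe annotation were not stated in the labels. RMA forces all arrays to 1 distribution, and a shift of total RNA could not be seen. Array data have no read depth, so precision is limited by the 4 arrays per genotype.

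The 35 loci were matched by locus code, 1 probe set each. A linear model with 1 mean per genotype was fitted over all 16 arrays and 27826 probe sets with limma 3.58.1 in R 4.3.3 (lmFit and eBayes, no filter), with 6 contrasts and Benjamini-Hochberg adjustment. The fit was tested on simulated data. Exact permutation tests were two-sided. Members with an adjusted p under 0.05 and a difference of at least 1 in any of 4 contrasts with WT are described in full (10), other called members by difference and adjusted p (13) and the rest by range (12). In each of 4 pathway lists, the 3 members with the smallest adjusted p in amiNAA10 and over both HYPK lines are named. The members and lists were chosen with earlier results of these data known. Alternatives were a replicate block, a filter on dim probe sets, other variance priors, fewer groups, array weights, other scaling and leaving out each array. RefSeq TAIR10.1 was used for names and neighbours. Promoter and protein sequences were not analysed here.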

Additional observations from a re-analysis of the deposited data

Results flagged for a closer look

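For each member and genotype, the 4 arrays were examined for a single array far from the other 3 by Dixon's ratio. Of 140 such groups 12 held one, and chance alone gives about 7 (1 in 20). In amiNAA10, EXPA9 read 2.05 on replicate 2 (others 2.42 to 2.47), EXPB3 read 4.61 on replicate 3 (others 4.22 to 4.24) and EXLA1 read 3.67 on replicate 2 (others 4.88 to 5.08). In the HYPK exon 1 line, EXPA9 read 2.58 on replicate 4 (others 2.20 to 2.21) and EXPA13 read 3.12 on replicate 1 (others 3.80 to 3.91). In the HYPK exon 2 line, EXPA11 read 4.91 on replicate 1 (others 3.86 to 4.02), EXPA13 read 3.27 on replicate 4 (others 3.91 to 3.99), EXPA21 read 1.76 on replicate 4 (others 1.06 to 1.12) and EXLB1 read 4.55 on replicate 3 (others 4.99 to 5.00). In WT, EXPA8 read 6.92 on replicate 4 (others 7.65 to 7.76), EXPA11 read 5.17 on replicate 1 (others 5.59 to 5.67) and EXPA22 read 4.36 on replicate 3 (others 3.20 to 3.34). Of the arrays that stood apart on the first principal component, exon 2 replicate 4 accounts for 2 of the 12. Replicate 2 of amiNAA10 accounts for those of EXPA9 and EXLA1 in that line.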

How the results depend on the processing

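Of 64 member calls in the 6 comparisons, 39 held in all alternative fits, at most 24 each, 25 were lost in at least 1 and 0 reversed. By comparison, 15 of 18 calls held throughout for amiNAA10, 7 of 13 for exon 1, 4 of 10 for exon 2, 9 of 16 for both HYPK lines and 4 of 7 for the HYPK lines against amiNAA10. Leaving out 1 array at a time gave 15 to 18 members lower in amiNAA10, 8 to 16 called in exon 1 (8 to 15 lower and 0 to 2 higher), 4 to 10 lower in exon 2, 10 to 16 lower and 0 to 1 higher over both HYPK lines, 4 to 7 higher in HYPK lines against amiNAA10, and 0 between the HYPK lines. The 2 members higher in exon 1 became 1 with the replicate block, without the dimmest 30% of probe sets and with only the compared groups. The 0 members higher over both HYPK lines became 1 with the replicate block, without the dimmest 30% and with an intensity trend in eBayes. Replicate numbers are shared by the genotypes, and the labels do not say whether equal numbers pair the arrays. Deviations of same-numbered arrays correlated with r from -0.289 to 0.302, and 6 of 16 arrays correlated best with their own number. The count that chance would give was not computed. With the replicate block the counts lower were 17 for amiNAA10, 13 for exon 1, 11 for exon 2 and 15 for both HYPK lines. Other scaling moved the median difference over all probe sets by at most 0.0208 in any of the 6 comparisons. Planned promoter motif counts and protein identities were not run. The share of all probe sets called was not counted for the alternative fits, and the causes of the lost calls were not tested.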
